A study of Mus musculus with 16 samples.

Results

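The comparison asks what the loss of the transcription factor Dec1 does to naive CD4+ T cells that receive a T cell receptor signal without costimulation. It sets 4 arrays of Dec1 knockout cells (KO_CD3) against 4 arrays of wild-type cells (WT_CD3), which are 8 of the 16 arrays of the study, and it runs across every gene that has a probe with a single symbol, with genes on X and Y set aside. All cells came from B6 mice, from spleen and lymph nodes, and were sorted as CD4+CD62LhiCD25- cells, a gate for naive T cells that leaves out cells carrying the IL-2 receptor alpha chain. Both groups were cultured for 24 h with latex beads that carried anti-CD3, an antibody that engages the T cell receptor complex. The other 8 arrays (WT_CD3CD28 and KO_CD3CD28, 4 each) held cells of the same 2 genotypes cultured with beads that also carried anti-CD28, the antibody to the costimulatory receptor CD28. The labels give neither the age nor the sex of the mice, nor which part of the Dec1 gene was removed, nor whether the knockout acts only in T cells. They number the replicates 1 to 4 without naming separate animals, and p-values here speak only to the variation between these arrays, which could be partly technical.

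Dec1 is the product of Bhlhe40, a basic helix-loop-helix factor that binds E-box letters in promoters and mostly represses transcription. In T cells it is induced by activation and is known for its part in cytokine production. A naive T cell that is activated leaves quiescence within about a day: it enlarges, makes ribosomes under the control of MYC, loads the MCM helicase onto replication origins, and then passes through DNA synthesis and mitosis under the control of E2F factors. Costimulation through CD28 is known to strengthen these steps.

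Values are deposited log2 signals of microarray probes, so a difference of 1 is a doubling. A gene was called when its Benjamini-Hochberg adjusted p in limma, over 16427 genes tested, was under 0.05. Array medians lay between 6.8 and 6.85 in WT_CD3 and between 6.87 and 6.97 in KO_CD3, and arrays correlated across genes at 0.9695 to 0.9946 within a group and at 0.9676 to 0.9921 between the groups. Dim genes tended to read higher in the knockout and bright genes lower. The median difference, knockout minus wild type, was 0.14 on the log2 scale in the dimmest of 4 equal sets of genes, 0.11 and -0.08 in the next ones and -0.14 in the brightest, against 0.03 over all genes. The part of this level-dependent shift in the calls was examined only by rescaling, with the counts given below. Xist, the RNA of the inactive X, was high and the Y-linked Kdm5d low on 1 of the 4 WT_CD3 arrays (replicate 1) and on 2 of the 4 KO_CD3 arrays (replicates 2 and 4), so the sex of the cells was not balanced between the groups.

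Bhlhe40 itself was lower in every knockout sample. Its levels were 8.02, 7.63, 7.59 and 7.0 in WT_CD3 replicates 1 to 4 and 5.57, 5.95, 5.43 and 5.18 in KO_CD3 replicates 1 to 4. The groups did not overlap, and the mean fell from 7.56 ± 0.42 (SD, n = 4) to 5.53 ± 0.32, a difference of -2.03 (SE 0.27, limma adjusted p = 0.00548) or 4.08-fold. In the knockout the probe lay between the 17.2nd and 29.2nd percentile of all probes on its array, against the 53.1st to 68.8th in wild type. Whether the probe lies inside the deleted part is not known here, so this residual signal cannot be read as transcript or as background. Bhlhe41, which encodes the related repressor Dec2, was too dim on these arrays to be tested.

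Outside X and Y, 163 of 15928 genes were called (1.02%). Of these, 118 were lower in the knockout (0.741%) and 45 were higher (0.283%), which makes 72.4% lower. Over all genes, X and Y included, 169 were called (1.03%), of them 46 higher (0.28%) and 123 lower (0.749%), and 3987 had an unadjusted p under 0.05 (24.3%). The lower genes had larger differences: 16 of them besides Bhlhe40 differed by more than 2-fold, and 0 of the higher genes did. Among the 118 lower genes, 115 were lower in all 4 pairs of same-numbered samples, and all 45 higher genes were higher in all 4. Of all 16427 genes tested, 2917 were lower and 3707 higher in all 4 pairs. The calls were made on the same arrays, so the agreement of the pairs is a description.

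**Figure D1:**
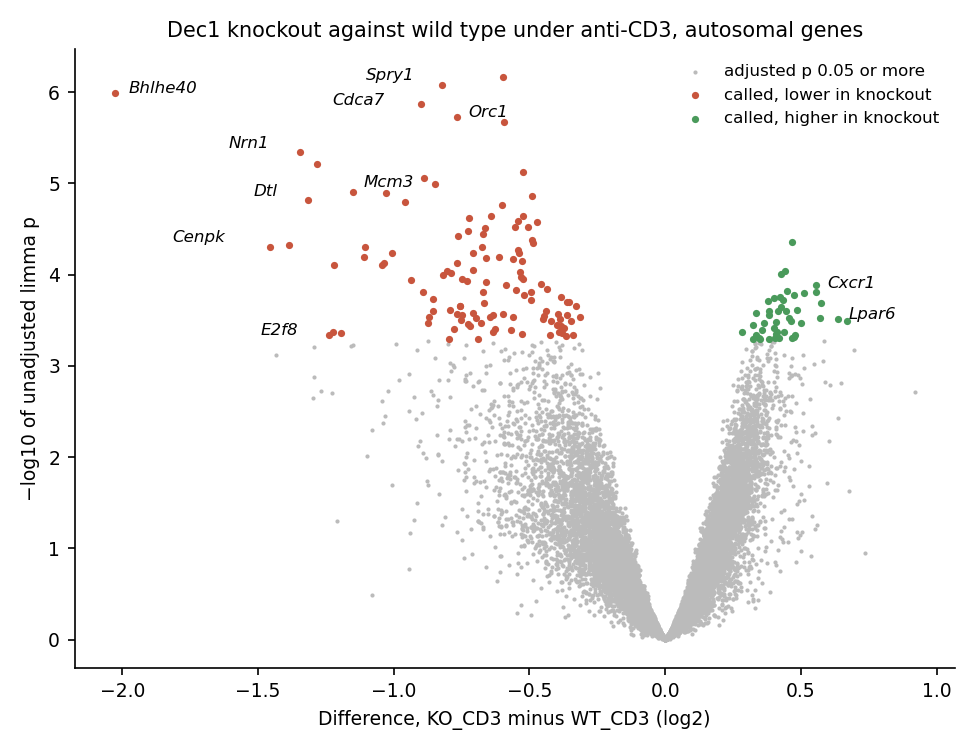
Each point is a gene outside X and Y, with the difference KO_CD3 minus WT_CD3 (log2, 4 arrays a group) on the horizontal axis and −log10 of the unadjusted limma p on the vertical axis; the 118 genes called lower are red and the 45 called higher are green. The lower genes reach -2.03 (Bhlhe40), while the called higher genes stay between 0.28 and 0.67.

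How many genes passed depended on the spread that the test used and on single arrays. The replicate number was also fitted as a block, although the labels do not say what a number shares. Under anti-CD3, deviations of same-numbered samples correlated at 0.181 to 0.453 and those of unlike ones at -0.451 to 0.237. With anti-CD28 the highest unlike pair, at 0.675, exceeded the highest same-numbered pair, at 0.586. With the block 1904 genes were called outside X and Y (12%), 855 higher and 1049 lower, and the 163 genes were all among them. Over all genes, 877 (5.34%) were higher and 1077 (6.56%) lower. A term for replicates 1 and 2 against 3 and 4 instead gave 1218 calls. The main fit took its spread from all 16 arrays, although spreads differed between stimuli. Array means of the mitosis list described below had SDs of 0.29 (WT_CD3) and 0.30 (KO_CD3), against 0.03 (WT_CD3CD28) and 0.05 (KO_CD3CD28). Those of T cell cytokines went the other way, with 0.03 and 0.05 against 0.29 and 0.31. A shared spread can make the SE and p under anti-CD3 too small for genes of the first kind and too large for the second. With the 8 anti-CD3 arrays fitted alone only 5 genes were called, all lower, and with replicates 3 and 4 alone 0. Without WT_CD3 replicate 3 only 7 genes were called, and without KO_CD3 replicate 2 only 11. Leaving out WT_CD3 replicate 1 left 26 calls, WT_CD3 replicate 2 left 59, KO_CD3 replicate 1 left 36 and KO_CD3 replicate 3 gave 432, while the counts without either replicate 4 were 120 (WT_CD3) and 171 (KO_CD3). The 7 genes called with any of the 8 arrays left out were Bhlhe40, Cdca7, Nrn1, Orc1, Spry1, Nefh and Zcwpw1, the last 2 of which were picked out here after their values were seen. Rescaling moved the balance of directions: 238 of 251 calls were lower (94.8%) with arrays centred on their medians, 87 of 141 (61.7%) after a second quantile normalization, and 42 of 50 (84%) after cyclic loess, which takes out level-dependent shifts. All 163 genes kept their direction under each of these settings, and 41 lower genes and 0 higher genes were called under all 3 scalings. With the Xist level as a covariate, 48 genes were called, 44 of them lower.

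The largest block of lower genes carries DNA replication. The gene lists used here and below were chosen with earlier results of these data known, so counts on them are descriptions. On a list of 44 genes of origin licensing and the replication fork, 42 were tested outside X and Y; 14 were called lower (33.3%) and 0 higher, and 41 of the 42 differences were below 0. Their median was -0.69, against 0.03 over all genes tested, and 23 had no overlap between the 4 and 4 values (6.63% of all genes were lower without overlap). The 14 called genes were Orc1, the MCM helicase genes Mcm2, Mcm3, Mcm5 and Mcm7, the helicase partners Cdc45 and Mcm10, the polymerase and primase genes Pole and Prim1, the clamp loader gene Rfc3, the DNA ligase Lig1, the thymidylate synthase Tyms, and the maintenance methylation genes Dnmt1 and Uhrf1. With the replicate block 29 of the 42 were called. The count was 9 after cyclic loess and 12 after quantile normalization. It was 1 without WT_CD3 replicate 3 or without KO_CD3 replicate 2, 5 without WT_CD3 replicate 1, 6 without KO_CD3 replicate 1 and 22 without KO_CD3 replicate 3. It was 0 when the 8 anti-CD3 arrays were fitted alone, and 0 with replicates 3 and 4 alone.

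Orc1, a subunit of the origin recognition complex on which the helicase is loaded, had levels of 7.49, 7.36, 7.83 and 7.29 in wild type and 6.67, 6.68, 6.79 and 6.76 in the knockout. Every knockout sample lay below every wild-type sample. The difference was -0.77 (SE 0.11, adjusted p = 0.00586), a fall of 1.7-fold. Mcm3 was at 9.58, 9.67, 10.15 and 9.56 in wild type and at 8.60, 8.09, 9.08 and 8.60 in the knockout. The highest value of each genotype came from replicate 3 and the lowest knockout value from replicate 2. The mean fell from 9.74 ± 0.28 to 8.59 ± 0.40, or 2.22-fold (adjusted p = 0.0161). Mcm5 fell 2.04-fold, from 9.39, 9.24, 9.82 and 9.18 to 8.36, 8.11, 8.73 and 8.33 (difference -1.03, SE 0.17, adjusted p = 0.0161), and Mcm2 fell 2.05-fold (adjusted p = 0.026). Pole, the catalytic subunit of the leading-strand polymerase, fell 2.16-fold (adjusted p = 0.0236), and Lig1, which seals Okazaki fragments, fell 1.94-fold (adjusted p = 0.0163). Uhrf1, which recruits the methyltransferase Dnmt1 to newly replicated DNA, fell 2.33-fold (adjusted p = 0.0262).

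Further called genes of the same process were not on the list and were grouped after their values were seen, so their count carries no weight of its own. There were 15 of them, with a median of -0.80 and a range from -1.32 to -0.47. Dtl, the substrate receptor of the ubiquitin ligase that destroys the licensing factor CDT1 during DNA synthesis, was at 8.34, 8.41, 9.06 and 8.42 in wild type and at 6.84, 6.64, 8.0 and 7.49 in the knockout. The groups did not overlap, although replicate 3 was the highest sample of each. Dtl fell 2.49-fold (difference -1.32, SE 0.22, adjusted p = 0.0163). Cdca7, a MYC- and E2F-responsive gene that acts in chromatin remodelling for DNA methylation, was at 10.10, 9.85, 10.14 and 9.70 in wild type and at 9.32, 8.80, 9.15 and 8.94 in the knockout. It fell by 0.90 (SE 0.12, adjusted p = 0.00548), with the lowest wild-type sample well above the highest knockout sample. Ticrr, which starts helicase activation, fell 2.06-fold (adjusted p = 0.0262), and Chaf1a, the large subunit of the chromatin assembly factor that follows the fork, fell 2.16-fold (adjusted p = 0.0258). Nasp, a chaperone of free histone, moved less, from 10.49 ± 0.12 to 10.01 ± 0.13 (adjusted p = 0.0197).

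Promoters of 5 of these genes are shown so that the letters counted below can be read in place. Dec1 binds the E-box CACGTG, and E2F factors bind words such as TTTCCCGC, TTTCGCGC, TTTGCCGC and TTTGGCGC; the E2F words were added after the calls were seen. Both were searched on both strands in the 250 bases before each start in the RefSeq promoter table (GRCm38.p6). It matched 12467 of the tested genes outside X and Y. The E2F words can overlap each other, as they do in Mcm5, and none of the sequences below holds both an E2F word and the E-box. The E-box stood in 9.02% of all these genes, in 10 of the 93 called lower genes with an entry (10.8%) and in 1 of the 34 called higher genes (2.94%). An E2F word stood in 3.3% of all genes, in 14 of the 93 lower genes (15.1%) and in 0 of the 34 higher genes. On the replication list it stood in 9 of 35 genes (25.7%). No test was run on these shares. The 250 bases before the start are given 5′ to 3′ on the gene's strand, with an E2F word in capitals in Orc1, Mcm5 (2 overlapping words), Cdca7 and Dtl, and with the E-box in capitals in Chaf1a.
Orc1, chr4:108579204-108579453, + strand: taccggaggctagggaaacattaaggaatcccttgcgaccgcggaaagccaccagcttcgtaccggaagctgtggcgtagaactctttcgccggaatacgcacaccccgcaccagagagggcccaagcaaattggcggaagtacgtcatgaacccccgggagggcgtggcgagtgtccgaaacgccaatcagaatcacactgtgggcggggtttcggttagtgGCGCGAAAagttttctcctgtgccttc
Mcm5, chr8:75109259-75109508, + strand: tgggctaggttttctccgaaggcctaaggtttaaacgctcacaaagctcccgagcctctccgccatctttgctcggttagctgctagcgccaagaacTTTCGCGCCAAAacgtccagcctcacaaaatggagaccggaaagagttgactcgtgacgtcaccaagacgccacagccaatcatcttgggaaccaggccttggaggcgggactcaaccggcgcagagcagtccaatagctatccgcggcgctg
Cdca7, chr2:72475969-72476218, + strand: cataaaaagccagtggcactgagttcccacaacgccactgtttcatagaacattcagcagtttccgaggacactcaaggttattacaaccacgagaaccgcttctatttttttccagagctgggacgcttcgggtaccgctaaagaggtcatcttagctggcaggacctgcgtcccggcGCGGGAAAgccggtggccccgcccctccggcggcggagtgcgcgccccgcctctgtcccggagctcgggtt
Dtl, chr1:191575545-191575794, - strand: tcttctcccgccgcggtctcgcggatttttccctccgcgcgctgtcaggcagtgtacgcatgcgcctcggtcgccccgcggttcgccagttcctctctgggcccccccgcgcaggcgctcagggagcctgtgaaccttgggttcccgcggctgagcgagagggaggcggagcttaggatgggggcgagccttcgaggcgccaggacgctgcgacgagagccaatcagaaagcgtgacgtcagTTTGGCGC
Chaf1a, chr17:56040166-56040415, + strand: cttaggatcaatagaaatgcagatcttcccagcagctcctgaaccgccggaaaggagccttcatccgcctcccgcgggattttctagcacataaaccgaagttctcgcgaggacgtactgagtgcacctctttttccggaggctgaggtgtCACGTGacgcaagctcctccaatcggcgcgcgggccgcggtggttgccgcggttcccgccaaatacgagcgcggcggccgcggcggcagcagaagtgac
The capitals mark letters only, and neither factor's binding was measured. In Dtl the word ends at the last base before the start.

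**Figure D2:**
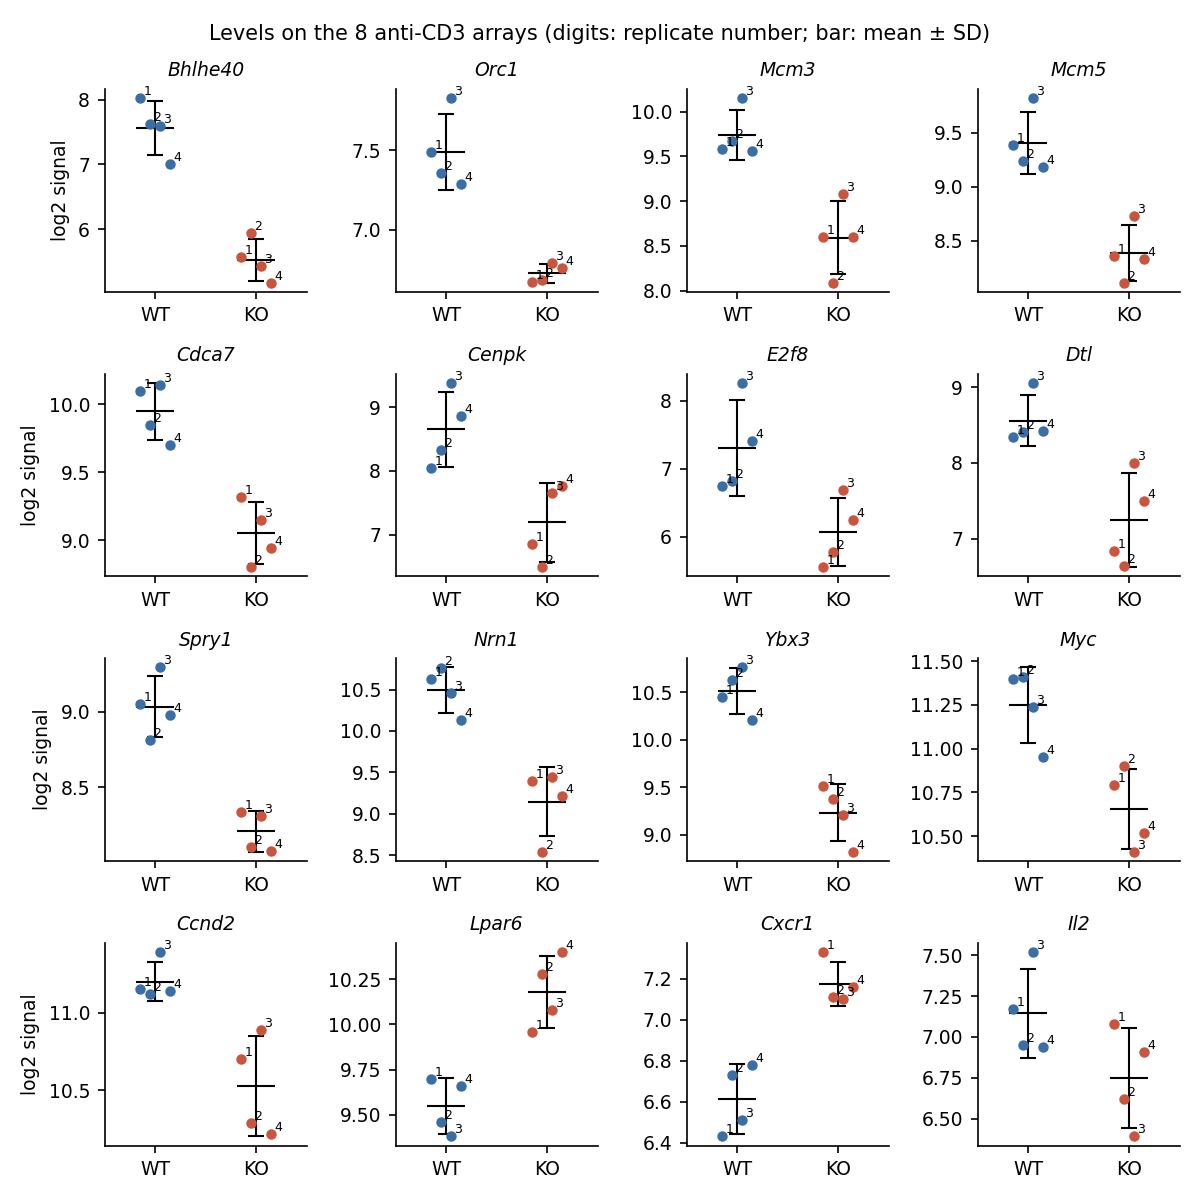
Each panel gives log2 signal on the 8 anti-CD3 arrays for 1 gene, with wild type (WT) in blue and knockout (KO) in red, digits for the replicate number, and the mean ± SD (n = 4) in black; vertical scales differ between panels and do not start at 0. The first 13 genes were called lower and do not overlap, Lpar6 and Cxcr1 were called higher, and Il2 was not called (adjusted p = 0.496) and overlaps.

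Genes of mitosis were lower too, with wider spread. Of 51 tested genes outside X and Y, 9 were called lower (17.6%) and 0 higher; the median was -0.53 and 41 were below 0. The called genes were Cenpk and Cenpe of the kinetochore, the condensin genes Ncapg2, Ncapd2 and Ncaph, the chromosomal passenger gene Cdca8, the checkpoint kinase gene Bub1b, the spindle motor Kif15 and the microtubule-binding Hmmr. Cenpk had the largest fall after Bhlhe40. It was at 8.04, 8.32, 9.38 and 8.86 in wild type and at 6.86, 6.49, 7.66 and 7.76 in the knockout, so replicates 3 and 4 were high in both genotypes. The difference was -1.46 (SE 0.27, adjusted p = 0.0236), or 2.74-fold. Ncapg2 fell 2.34-fold (adjusted p = 0.0481), Ncapd2 fell 1.65-fold (adjusted p = 0.0197), Hmmr fell by 0.79 (adjusted p = 0.0288) and Kif15 by 0.77 (adjusted p = 0.026). Mki67, a general marker of cycling cells, was at 7.84, 7.56, 8.62 and 8.02 in wild type and at 6.62, 6.37, 7.86 and 7.5 in the knockout. Its groups overlapped and it was not called (difference -0.92, adjusted p = 0.0917), though it was with the block (adjusted p = 0.0102). With the block 28 of the 51 genes were called, and after cyclic loess 4. With the 8 anti-CD3 arrays fitted alone 0 were called, and with replicates 3 and 4 alone 0. Without WT_CD3 replicate 3 or KO_CD3 replicate 2 none was called, without WT_CD3 replicate 1, WT_CD3 replicate 2 or KO_CD3 replicate 1 the counts were 2, 5 and 3, and without KO_CD3 replicate 3 or replicate 4 they were 20 and 16. In cells measured in bulk, fewer cycling cells and less of these RNAs in each cell cannot be told apart.

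Among the control genes of the cycle, E2f8 and Ccnd2 fell. Of 33 genes of E2F factors, cyclins and their kinases, 2 were called lower (6.06%), with a median of -0.26. E2f8, a repressor of the E2F family that is itself switched on in S phase, was at 6.74, 6.81, 8.26 and 7.41 in wild type and at 5.55, 5.78, 6.69 and 6.25 in the knockout. Replicate 3 was the highest sample of each group, and its knockout value lay only just below the lowest wild-type value, so the groups came close without overlapping. E2f8 fell 2.36-fold (SE 0.29 on the log2 scale, adjusted p = 0.0483). Ccnd2, the D-type cyclin of early G1, was at 11.15, 11.12, 11.39 and 11.14 and fell to 10.70, 10.29, 10.89 and 10.22. The difference was -0.67 (SE 0.13, adjusted p = 0.0236). Among 25 repair and checkpoint genes, Clspn and Tipin, which carry the replication checkpoint signal at the fork, were called lower (8%), with differences of -0.87 (adjusted p = 0.0436) and -0.75 (adjusted p = 0.0404). With the block the counts were 9 of 33 and 14 of 25, and after cyclic loess 0 in both.

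Growth genes showed small differences in the same direction. Of 42 genes of the MYC network and ribosome biogenesis, 2 were called lower (4.76%), 37 were below 0 and the median was -0.31. Myc, the factor that drives growth after T cell receptor signals, was at 11.40, 11.41, 11.24 and 10.95 in wild type and at 10.79, 10.90, 10.41 and 10.52 in the knockout. The lowest wild-type sample was only a little above the highest knockout sample. Myc fell 1.51-fold (difference -0.60, SE 0.13, adjusted p = 0.0421), but its adjusted p was 0.168 after cyclic loess and 0.124 after quantile normalization, and the call was lost without any single array other than WT_CD3 replicate 4. Nop58, a core protein of the box C/D particles that modify ribosomal RNA, fell by 0.44 (SE 0.09, adjusted p = 0.0351; 0.168 after cyclic loess and 0.13 after quantile normalization). Rrs1, which assembles the large ribosomal subunit and was not on the list, was at 9.24, 8.77, 9.14 and 8.83 in wild type and at 8.35, 8.35, 8.29 and 8.33 in the knockout. Its 4 knockout values lay within a narrow band below all wild-type values, and it fell 1.58-fold (adjusted p = 0.0202). With the block 21 of the 42 genes were called, and after cyclic loess or quantile normalization 0.

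Single genes were called on lists of metabolism and of nutrient uptake. Outside X and Y 0.741% of all genes were called lower. In the brightest of the 4 equal sets of all genes, 84 of 4107 were. A single call on a short list is to be read beside those shares. Psat1, an enzyme of serine synthesis, was the 1 called gene of 34 on the amino acid, one-carbon and ATF4 list (2.94%), with a fall of 0.63 (SE 0.14, adjusted p = 0.0473). Scd2, which desaturates fatty acids, was the 1 of 33 on the sterol and fatty acid list (3.03%); it was at 7.01, 6.77, 6.94 and 6.66 in wild type and at 6.34, 5.73, 6.08 and 6.11 in the knockout, a fall of 0.78 (SE 0.18, adjusted p = 0.0473). Tfrc, the transferrin receptor that takes up iron, was the 1 called of 26 activation and costimulation receptors (3.85%). Its fall of 0.64 (SE 0.15, adjusted p = 0.0481) rested on 3 pairs: in replicate 4 the knockout value of 10.54 was above the wild-type value of 10.47, so the groups overlapped. With the block 13 of 34, 9 of 33 and 8 of 26 genes of these lists were called, all lower. After cyclic loess none was: the adjusted p was 0.112 for Psat1, 0.065 for Scd2 and 0.0942 for Tfrc. In the main fit no gene was called on the lists of aminoacyl-tRNA synthetases (18 tested), nucleotide and polyamine synthesis (18), glycolysis (20), the respiratory chain with mitochondrial translation (38), or the proteasome and chaperones (41). Their medians were -0.28, -0.33, -0.29, -0.19 and -0.21. With arrays centred on their medians 0, 3, 1, 2 and 2 genes of these lists were called lower. All 18 synthetases and all 18 nucleotide and polyamine genes were below 0. The brightest of the 4 equal sets of all genes had a median of -0.14. After cyclic loess, which takes out level-dependent shifts, the list medians were -0.16, -0.21, -0.26, -0.07 and -0.09. The part of the level-dependent shift in these lists was not tested further. With the block 11, 11, 5, 5 and 8 genes of these lists were called, all lower (6.56% of all genes were called lower with it).

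**Figure D3:**
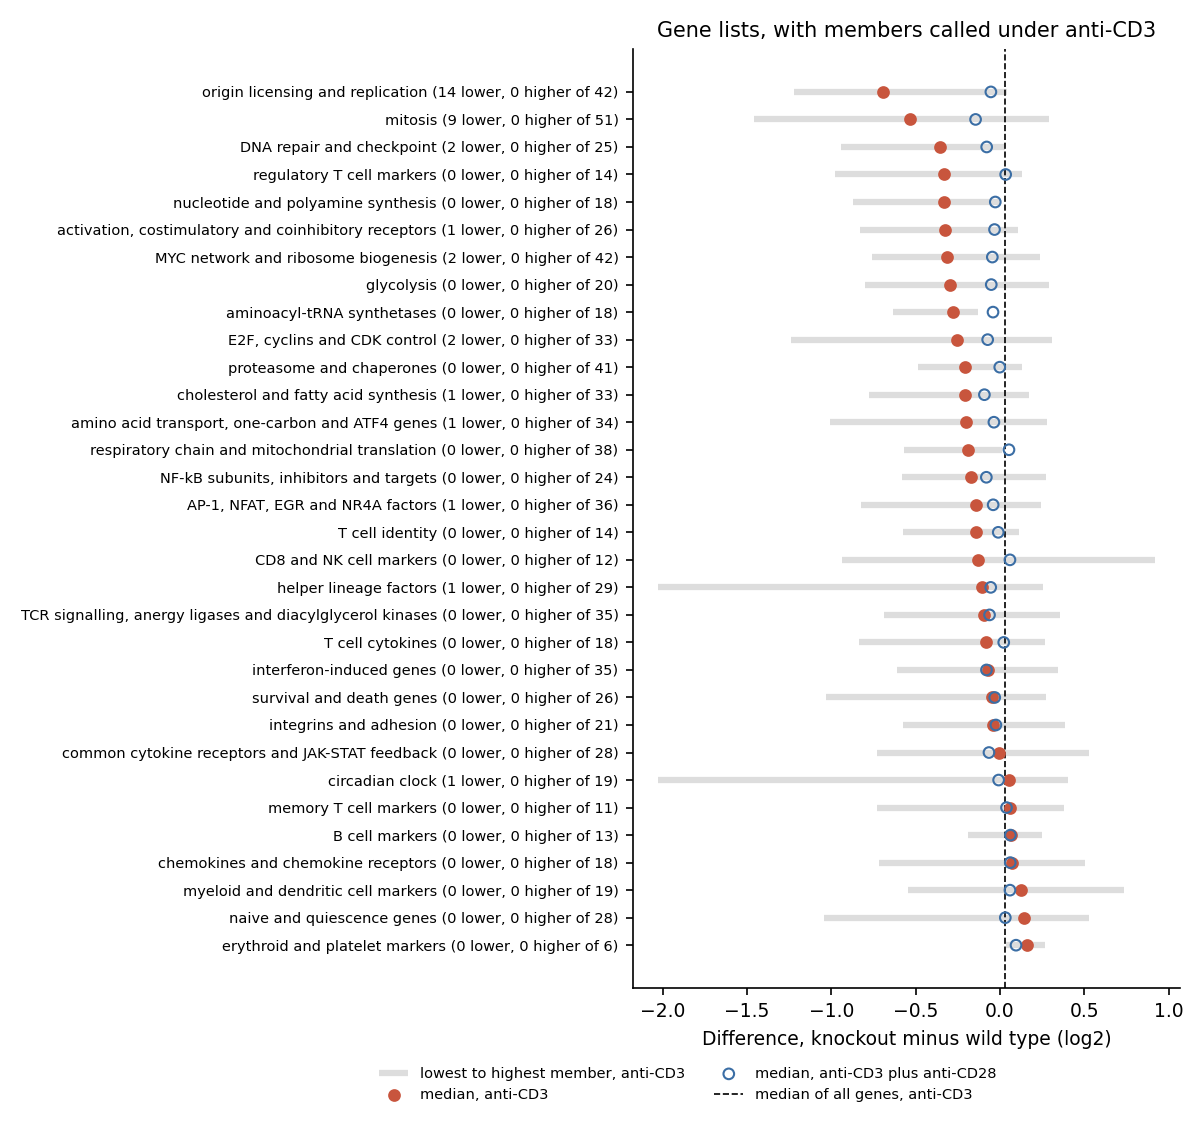
Medians of the differences, knockout minus wild type (log2), for 32 gene lists without X and Y genes, under anti-CD3 (filled) and under anti-CD3 plus anti-CD28 (open), with the range of the members under anti-CD3 in grey, the median of all genes dashed, and the members called under anti-CD3 in brackets. Replication (14 of 42 called lower) and mitosis (9 of 51) have the lowest medians, -0.69 and -0.53, and no list has a member called higher in the main fit.

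Several of the most lowered genes belong to signalling and to other processes. Spry1, a feedback inhibitor of the ERK pathway and the 1 called gene of 36 on the AP-1, NFAT, EGR and NR4A list (2.78%), was at 9.05, 8.81, 9.29 and 8.98 in wild type and at 8.34, 8.11, 8.31 and 8.08 in the knockout. The groups were well apart, and the fall was 1.77-fold (difference -0.82, SE 0.11, adjusted p = 0.00548). Nrn1, which encodes neuritin, a membrane-anchored protein known from anergic and regulatory T cells, was at 10.63, 10.76, 10.46 and 10.13 and fell to 9.39, 8.54, 9.45 and 9.21. The fall was 2.54-fold (difference -1.35, SE 0.20, adjusted p = 0.0107). Ybx3, a cold-shock-domain protein that binds RNA, was at 10.45, 10.63, 10.76 and 10.21 in wild type and at 9.51, 9.38, 9.21 and 8.82 in the knockout. Replicate 4 was the lowest of each group, and Ybx3 fell 2.43-fold (SE 0.20 on the log2 scale, adjusted p = 0.0125). Gstp3, a glutathione transferase, fell 2.29-fold (adjusted p = 0.0483). Rgs1, which damps G protein signals from chemokine receptors, was singled out after its values were seen: it fell by 1.39 (adjusted p = 0.0236), yet its knockout replicate 4 at 9.62 lay above its wild-type replicate 4 at 9.59.

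The genes called higher were mostly dim. In 44 of the 45 the groups did not overlap (8.06% of all genes were higher without overlap). Of the 45, 24 were below the array median on all 8 arrays, where 30% of all tested genes lie, and 10 were above it on all 8; of the 117 lower genes besides Bhlhe40, 93 were above it on all 8 and 1 was below. Lpar6, a receptor for lysophosphatidic acid, was the highest called gene without overlap and a bright one. It was at 9.70, 9.46, 9.38 and 9.66 in wild type and at 9.96, 10.28, 10.08 and 10.40 in the knockout, a rise of 1.55-fold (difference 0.64, SE 0.14, adjusted p = 0.0424; 0.067 with arrays centred on their medians). The others were smaller or dimmer. Mpo, the peroxidase of neutrophil granules, was at 5.63, 5.84, 5.73 and 6.03 and rose to 6.54, 6.36, 6.20 and 6.42 (adjusted p = 0.0421). Cxcr1, a neutrophil chemokine receptor, was at 6.43, 6.73, 6.51 and 6.78 and rose to 7.33, 7.11, 7.10 and 7.16 (adjusted p = 0.0351). Ly6g2, of the Ly6 family, rose by 0.56 and Scn10a, a sodium channel of sensory neurons, by 0.58. Aqp11, Chrnb4, Kcne2, Wscd1, Ankrd9, Pianp, Adamts18, Fzd9 and Casp14 rose by 0.43 to 0.51. After cyclic loess the adjusted p of Lpar6 was 0.0343, while that of the 13 others named here was between 0.0842 and 0.14.

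Marker lists of other cell types had no called gene in the main fit. Other settings without the block called some: with arrays centred on their medians, 1 regulatory T cell marker and 1 memory T cell marker were lower. The block called 5.34% of all genes higher and 6.56% lower, and the counts on these short lists are to be read beside those shares. With it, 1 of 13 B cell markers was called higher, and 1 of 19 myeloid and dendritic cell markers higher and 1 lower. Of 12 CD8 and NK cell markers 2 were higher and 2 lower, of 11 memory T cell markers 2 were higher and 2 lower, and of 6 erythroid and platelet markers 1 was higher. Of the 19 tested markers of myeloid and dendritic cells, 13 were above 0, with a median of 0.13 (-0.02 after cyclic loess), and their mean level ran from 7.08 to 7.17 in WT_CD3 and from 6.98 to 7.38 in KO_CD3. The largest difference among them was that of Lyz2, the lysozyme of myeloid cells, at 0.74 (adjusted p = 0.3), singled out after its values were seen. The lowest was -0.54, and at an unadjusted limma p under 0.05, 3 of these markers were lower and 1 was higher. Cst3 and Cd68 were the 2 markers lower in all 4 pairs, and 4 were higher in all 4. S100a8, Ccr2, Xcr1 and Adgre1 were too dim to be tested. The mean level of 13 B cell markers ran from 6.69 to 6.85 and from 6.62 to 6.97, and that of 6 erythroid and platelet markers from 6.61 to 6.73 and from 6.69 to 6.9. The 12 CD8 and NK cell markers had mean levels of 7.8 to 8.21 and 7.82 to 8.01. Among them Klrd1, an NK receptor chain, was at 9.15, 9.09, 9.41 and 9.79 in wild type and at 9.70, 10.37, 10.18 and 10.86 in the knockout. It was higher in all 4 pairs but overlapped and was not called (difference 0.92, adjusted p = 0.0755; 0.00421 with the block). Eomes, a factor of cytotoxic and memory cells, had a difference of -0.74 (adjusted p = 0.13; 0.0257 with the block). Regulatory T cell markers had the lowest median of these lists, -0.33 over 14 genes, and mean levels of 8.8 to 9.04 against 8.35 to 8.74, which do not overlap. With the block 4 of the 14 were called lower. The 14 leave out Foxp3, which lies on X, and include Il2ra, Ctla4, Tnfrsf4 and Tnfrsf18. The trait is not particular to this list. Activation and costimulation receptors also had a median of -0.33, with mean levels of 9.601 to 9.778 against 9.215 to 9.474, again without overlap. T cell identity genes were high in both groups, at 11.09 to 11.3 and 10.84 to 11.14. The part of these cell types in the calls was not tested.

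The genes by which T cell activation is usually read were mostly not called. Il2, the growth factor of activated T cells, was at 7.17, 6.95, 7.52 and 6.94 in wild type and at 7.08, 6.62, 6.39 and 6.91 in the knockout; the groups overlapped (difference -0.40, SE 0.37, adjusted p = 0.496). Its receptor chain Il2ra differed by -0.56 (SE 0.19, adjusted p = 0.115). Tnf was at 9.95, 9.93, 10.73 and 10.60 in wild type and at 9.37, 9.19, 10.00 and 9.31 in the knockout. The groups overlapped, and it was lower in all 4 pairs without passing (difference -0.84, adjusted p = 0.0789), and it passed with the block (adjusted p = 0.0246). Ctla4, the inhibitory partner of CD28, was at 11.09, 10.92, 10.63 and 10.63 and at 9.78, 9.28, 10.36 and 10.52. The groups did not overlap, but replicates 3 and 4 differed little (difference -0.83, adjusted p = 0.0699; 0.0177 with the block). Ifng, Il3, Csf2, Lif, Cd69 and Cd28 had differences of -0.07, -0.12, -0.03, -0.35, -0.07 and 0.02, with adjusted p between 0.276 and 0.976. The costimulatory receptor genes Icos and Tnfrsf4 differed by -0.32 (adjusted p = 0.338) and -0.73 (adjusted p = 0.127; 0.00586 with the block).

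No gene of quiescent cells passed in the main fit. With the block 3 were called higher and 1 lower. The 28 tested naive and quiescence genes had a median of 0.14, and 19 were above 0. Il7r, the receptor for the survival factor IL-7, was at 11.86, 11.60, 11.45 and 11.95 in wild type and at 12.21, 12.44, 12.17 and 12.17 in the knockout. The groups did not overlap, but the spread over the fit left it uncalled (difference 0.53, SE 0.21, adjusted p = 0.147; 0.07 with the block). Klf6 had a difference of 0.50 (adjusted p = 0.0713; 0.0298 with the block and 0.0354 after quantile normalization), and Txnip, a brake on glucose uptake, 0.28 (adjusted p = 0.12). Since Dec1 is also a clock factor, the 19 tested clock genes were read. Bhlhe40 was the only call in the main fit, and the block called 1 gene higher and 2 lower. Nr1d2, which encodes the clock repressor REV-ERB beta, was at 8.42, 8.41, 8.30 and 8.48 in wild type and at 8.80, 8.94, 8.76 and 8.73 in the knockout, with no overlap (difference 0.40, adjusted p = 0.0751; 0.0223 with the block and 0.0354 after quantile normalization). Per1, Per2, Nr1d1 and Dbp differed by -0.27, 0.07, 0.24 and 0.08 and were not called. The inhibitors of E proteins Id2 and Id3 differed by -0.14 (adjusted p = 0.721) and -0.30 (adjusted p = 0.444). On the other lists the block called 5 of 36 AP-1, NFAT, EGR and NR4A genes lower, 1 of 35 T cell receptor signalling genes higher and 5 lower, 1 of 18 chemokine and chemokine receptor genes higher and 2 lower, 1 of 24 NF-kB genes higher and 2 lower, 3 of 29 helper lineage factors lower, and 1 of 26 survival genes higher and 1 lower. It called 1 gene lower on each of the lists of T cell identity, cytokines, interferon-induced genes, integrins and cytokine receptors. Over all genes the block called 5.34% higher and 6.56% lower, and these counts are to be read beside those shares.

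**Figure D4:**
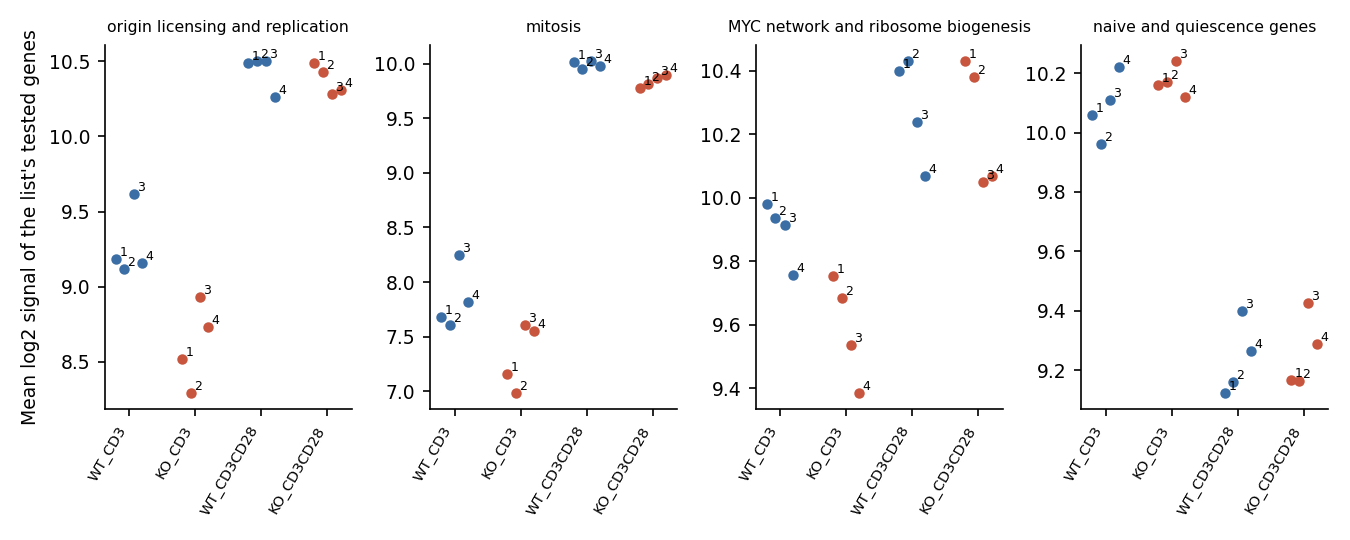
Mean log2 signal of the tested genes of 4 lists, without X and Y genes, on each of the 16 arrays (digits give the replicate; wild type blue, knockout red). Replication genes run from 9.12 to 9.62 in WT_CD3 and from 8.3 to 8.94 in KO_CD3 and do not overlap there, while naive and quiescence genes do (9.96 to 10.22 and 10.12 to 10.24).

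With CD28 costimulation the same genes differed little between the genotypes. Bhlhe40 was the only gene called there (0.00609%), with a difference of -3.62 (SE 0.27), 545 genes had an unadjusted p under 0.05 (3.32%), and 452 had no overlap between the groups (2.75%). The 117 lower genes besides Bhlhe40 had a median of -0.66 under anti-CD3 and of -0.11 with anti-CD28 added, where 102 of them kept the sign and 5 had an unadjusted p under 0.05. The 45 higher genes had medians of 0.43 and 0.09, and 39 kept the sign. They were chosen for their difference under anti-CD3, so a smaller difference in arrays not used for the choice is a description. Orc1 differed by 0.02 (SE 0.11), Cdca7 by -0.06 (SE 0.12) and Dtl by 0.01 (SE 0.22) with anti-CD28 present. Scd2 had the largest difference of the 117 there, at -0.51 (SE 0.18). The replication list went from a median of -0.69 to -0.05, and its mean level went from 9.27 ± 0.24 to 10.44 ± 0.12 in wild type and from 8.62 ± 0.28 to 10.38 ± 0.10 in the knockout. When the difference of the genotype effect between the stimuli was tested itself, no gene passed in limma (0%, smallest adjusted p = 0.905), and 867 had an unadjusted p under 0.05 (5.28%). With the block no gene passed either. Xist was high under both stimuli in wild-type replicate 1 (10.95 and 11.24) and knockout replicates 2 (10.44 and 11.36) and 4 (11.1 and 11.35), and low under both in the others. The labels do not say whether such samples shared a source. No fit modelled a source shared by 1 genotype and number across the stimuli, so this test is limited. Among the 163 called genes, those with the smallest unadjusted p for that difference were Orc1, Cdca7, Spry1, Rrs1, Ttc27 and Nasp (8.51e-05 to 0.0004).

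**Figure D5:**
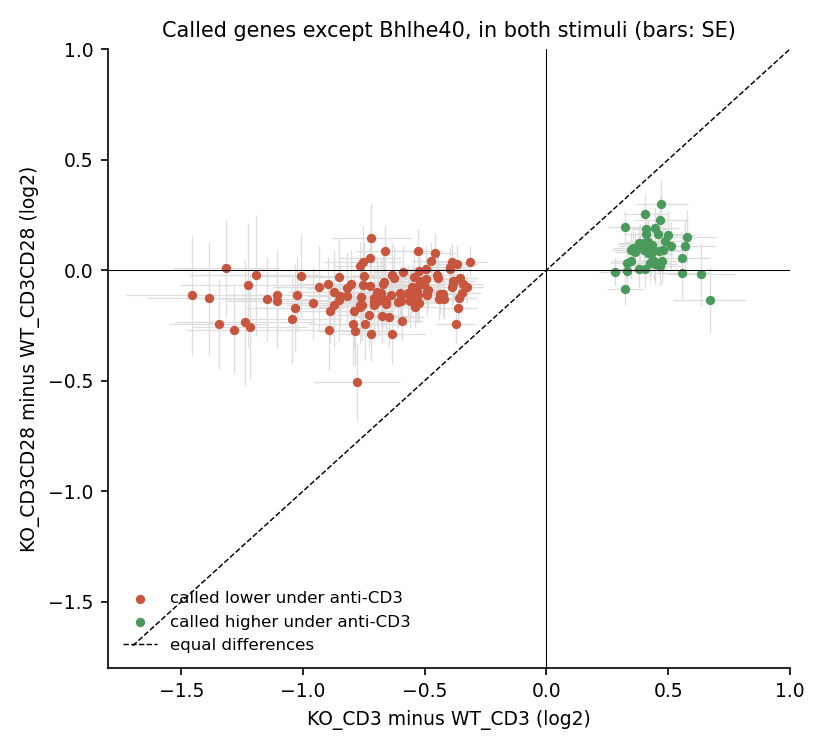
The 162 called genes other than Bhlhe40, with the difference under anti-CD3 on the horizontal axis and under anti-CD3 plus anti-CD28 on the vertical axis (knockout minus wild type, log2; bars are SE; dashed line, equal differences). The red genes (called lower) have a median of -0.66 across and -0.11 upward, and the green ones 0.43 and 0.09; the genes were chosen on the horizontal axis.

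The neighbourhood of the targeted gene was read separately. Among the 50 tested genes on each side of Bhlhe40 in the RefSeq gene order, 1 of 100 was called (1%), against 1.02% of all genes outside X and Y. It was Suclg2, which encodes a subunit of a mitochondrial succinyl-CoA ligase, at 9.92, 9.79, 10.03 and 9.78 in wild type and at 9.43, 9.38, 9.69 and 9.43 in the knockout. The fall was 0.40 (SE 0.09, adjusted p = 0.0447), and with anti-CD28 present the difference was 0.01. On chromosome 6, which carries Bhlhe40, 12 of 823 tested genes were called (1.46%).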

How the data were processed

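Gene expression was measured on 16 microarrays of biotin-labelled total RNA, 4 per group, and all 16 entered the fit. The values are log2 signals that the authors deposited as 1 table, made with RMA, per the submitters' processing notes (RMA corrects background, normalizes arrays by quantiles and summarizes probe sets). No genome build for the probe design was named in what was read here. The number of arrays limits the precision.

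The table held 35556 probes with values from 1.84 to 14 and 0 missing. A probe table named 23410 of them: 21789 had 1 gene symbol and were used, 1621 had several, and 12146 were not listed. RefSeq (GRCm38.p6) matched 21698 by gene identifier, which gave the chromosome. A probe was kept if at least 4 arrays had it above their own 25th percentile (17930). Each of 16427 genes was represented by its probe of highest mean; 861 genes had more than 1. Of these, 499 lie on X or Y and were set aside from counts, and 59 have no chromosome here. limma 3.58.1 in R 4.3.3 fitted 1 mean per group (12 residual and 4.92 prior degrees of freedom), with Benjamini-Hochberg adjustment over all 16427 genes and a threshold of 0.05. The fit was tested on simulated data. Figures used Python 3.11.15 with numpy 2.4.6, pandas 2.3.3 and matplotlib 3.10.9.

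Named genes were the 15 called with the largest difference in each direction and no overlap, the 4 with the smallest p on each of 32 lists, a fixed panel, called neighbours of Bhlhe40 and the 6 called genes with the smallest p for the difference between stimuli; genes outside it are said to be so, or stand among the called members of a list. Members and lists were chosen with earlier results of these data known. The labels number replicates 1 to 4 in each group. Under anti-CD3, deviations from the group mean correlated at 0.181 to 0.453 between same-numbered samples and at -0.451 to 0.237 between unlike ones (median -0.134); with anti-CD28 the ranges were 0.201 to 0.586 and -0.659 to 0.675 (median -0.367). The ranges overlap. Every same-numbered pair exceeded 0.1, the criterion used, so the numbers were taken to pair the samples. This is a hint from the data, since the labels do not say what a number shares. Blocked counts are given for the gene lists and for named genes whose call changed. Alternatives covered scaling, filters, probe choice, array weights, covariates and left-out arrays. No 2 arrays held identical values.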

Additional observations from a re-analysis of the deposited data

Results flagged for a closer look

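Over 82 genes and the 2 anti-CD3 groups, 10 of 164 groups of 4 had 1 sample apart from the other 3 (by Dixon's 95% criterion, the gap over the range); about 1 in 20 groups would be set apart by chance. WT_CD3 replicate 3 was the high sample for Lig1 (9.65, others 9.04 to 9.11), Dtl (9.06, others 8.34 to 8.42), Ticrr (8.57, others 7.78 to 7.89) and Ccnd2 (11.39, others 11.12 to 11.15). For Nop58, WT_CD3 replicate 4 was low at 11.1 (others 11.27 to 11.29) and KO_CD3 replicate 3 was low at 10.59 (others 10.85 to 10.88). In the knockout, Chrnb4 was low in replicate 1 (6.98, others 7.17 to 7.2), Cd69 in replicate 3 (10.24, others 10.59 to 10.65) and Txnip in replicate 4 (11.91, others 12.18 to 12.23). Il7r was high in KO_CD3 replicate 2, at 12.44 against 12.17 to 12.21.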

How the results depend on the processing

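The 163 genes called outside X and Y kept their direction under every alternative that held them, but the counts moved. Counts follow in the order all, higher, lower, list members, replication and mitosis, and were 163, 45, 118, 34, 14 and 9 as reported. They were 1904, 855, 1049, 208, 29 and 28 with the replicate block, 567, 200, 367, 99, 22 and 19 with the block after cyclic loess, and 50, 8, 42, 16, 9 and 4 after cyclic loess alone, both loess settings being chosen after seeing the data. The 8 anti-CD3 arrays alone gave 5, 0, 5, 2, 0 and 0, the Xist covariate 48, 4, 44, 13, 8 and 2, array weights 575, 179, 396, 97, 27 and 25, and an adjusted p under 0.01 gave 6, 0, 6, 3, 1 and 0. Replicates 1 and 2 alone gave 1340, 303, 1037, 194, 33 and 31, and replicates 3 and 4 alone gave 0 throughout, with Bhlhe40 at -2.00 (limma adjusted p = 0.0969). A term for these 2 sets gave 1218, 471, 747, 170, 29 and 27. Median centring gave 251 calls, 13 higher and 238 lower, with 53 list members. Without replicate 4 of both knockout groups, chosen after seeing the data, there were 81, 7 and 74. Higher calls were 29 without the filter on dim probes and 23 with a stricter one. With single arrays left out the ranges were 7 to 432, 0 to 104, 7 to 328, 3 to 74, 1 to 22 and 0 to 20, and Bhlhe40 ran from -2.22 to -1.88. With replicates 1 and 2 alone, 2 genes were called under anti-CD3 plus anti-CD28 and 80 for the difference between stimuli, against 1 and 0; replicates 3 and 4 alone gave 1 and 0. Quantile normalization, probe choice and a trended prior left the count of calls within 1.5 times. The genes behind a similar count changed: after quantile normalization 86 of the 163 were still called, 14 of the 45 higher and 72 of the 118 lower. Cause of these moves was not tested. Fewer arrays also leave fewer degrees of freedom, and dim probes give compressed differences.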

Other observations

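Called genes outside the gene lists were read by function after the calls were seen, so the groups are descriptions. Of the 129 called genes in no list, 14 serve ribosome assembly and translation (median -0.51), 11 signalling or the cell surface (median -0.66) and 7 the mitochondrion (median -0.55); 5 more act in mitosis (median -0.63). The signalling group holds Rgs1, Nrn1, Stk39, Snx9, Myd88, Prkca, Calm3, Etv6, Chst2, St3gal4 and Tbc1d7. The mitochondrial group holds the adenine nucleotide carrier Slc25a4, the aspartate-glutamate carrier Slc25a13, the serine carrier Sfxn1, fumarase (Fh1), Suclg2, Aldh2 and Fam162a.

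Mcm7 and the probe of a microRNA inside it were called in opposite directions, though the call of the microRNA was lost under all 3 rescalings and in 6 of 8 fits with 1 array left out. Mcm7 fell by 0.82 (SE 0.16, limma adjusted p = 0.0295; called in 4 of those 8 fits and under 2 of the 3 rescalings), while the probe of Mir93 was at 6.78, 6.71, 6.73 and 6.78 in WT_CD3 and at 7.20, 7.42, 7.03 and 7.13 in KO_CD3, a rise of 0.45 (SE 0.09, adjusted p = 0.0351). Mir25 and Mir106b, from the same host gene, differed by -0.19 (adjusted p = 0.463) and 0.10 (adjusted p = 0.647). Across 155 tested microRNA probes 3 were higher and 0 lower (1.94%), with a median of 0.23.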
